A study of Homo sapiens with 4 samples.

Results

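The genes described here encode the heat shock and DNAJ chaperones: the HSP70 proteins with their HSP110 relatives, the 2 cytosolic HSP90 genes, the mitochondrial folding proteins, the small heat shock proteins, the J-domain (DNAJ) proteins and the transcription factor HSF1. They were chosen by symbol, as the HSPA, HSPB, DNAJA, DNAJB and DNAJC genes with HSPH1, HSPD1, HSPE1, HSP90AA1, HSP90AB1 and HSF1, leaving out HSPA5, HSPA13, DNAJB9, DNAJB11, DNAJC3 and DNAJC10. This gave 69 of the 60623 genes counted, under 68 symbols, because HSPA14 stands on a pair of rows. The libraries came from BICR10, a human cell line labelled as head and neck cancer, transduced with lentivirus carrying either a control hairpin RNA (shControl, 2 libraries) or a hairpin against YEATS2 (shYEATS2, 2 libraries). YEATS2 is a reader of acylated histone lysines, and the comparison asks how the transcriptome differed once it was silenced. All the cells were selected with puromycin after transduction. The study lists more than 1 YEATS2 hairpin, and which of them each library carried is not given in the sources used here. The study describes its experiments in general as done on biological replicates, but how the libraries of a group were derived is not given in the sources used here, so the p-values measure the spread between these libraries, which may be in part technical.

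YEATS2 itself was counted at 66.1 and 66.7 CPM (read counts scaled to a common library size) in the shControl libraries and at 29.3 and 29.1 CPM in the shYEATS2 libraries, a log2 fold change of -1.19 ± 0.08 (SE). All fold changes are shYEATS2 against shControl, and the scaling used TMM, which corrects library totals for composition. The totals ran from 39824898 to 47297970 counts in shControl and from 11334133 to 24072396 in shYEATS2, so depth and hairpin cannot be told apart. Of 8 squamous and epithelial markers, 4 averaged under 1 CPM, TP63 and KRT17 among them. KRT8 had a mean of 266 CPM in shControl and 119 CPM in shYEATS2. The means of KRT5 were 15.7 and 1.19 CPM, and those of CDH1 0.335 and 2.48 CPM. Fibroblast genes summed to between 6172 and 6247 CPM in shControl and between 1986 and 2108 CPM in shYEATS2. COL1A1 and COL1A2 made up most of the shControl sum, at means of 2796 and 2616 CPM. PDGFRA and THY1 of the same list averaged 2.73 and 0.183 CPM in shControl. Among the 4 leukocyte markers, 2 had no count. The part these markers play in the chaperone values was not tested. In bulk RNA, fewer cells of a type and less RNA per cell cannot be told apart.

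Chaperones keep other proteins from clumping and help them to fold. HSP70 binds exposed stretches of a client and releases them in a cycle driven by ATP, J-domain proteins deliver clients and start that cycle, nucleotide exchange factors such as HSP110 and BAG proteins end it, and HSP90 takes up part of the clients afterwards. Small heat shock proteins hold unfolded proteins without using ATP. HSF1 switches on many of these genes under stress by binding heat shock elements, which are inverted repeats of a short unit, GAA on one strand and TTC on the other.

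To show where such elements stand near these genes, the promoters in RefSeq (GRCh38.p14, from 250 bases before to 50 bases after each gene start) were searched on both strands. They were matched for 57 of the 68 symbols. A single promoter, the first listed, was taken per symbol, so an element at another start of a gene was not seen. The share over all promoters counts every distinct promoter. A strict 3-unit element, GAANNTTCNNGAA or TTCNNGAANNTTC on the other strand, was present in 171 of 34943 promoters (0.489%), and in 4 of the 57 chaperone promoters (7.02%), those of HSPA8, HSPA6, DNAJA1 and DNAJB6. The windows below give these elements, 5′ to 3′ on the strand of the gene, with the repeat units in capitals. HSPA8, the constitutive HSP70, has both at chr11:123062345-123062374 and chr11:123062170-123062199 (minus strand), beginning 230 and 55 bases before the start. The HSPA6 element is at chr1:161524458-161524487 (plus strand), the DNAJB6 element at chr7:157336865-157336894 (plus strand), and the DNAJA1 element at chr9:33025268-33025297 (plus strand), 3 bases after the start.
HSPA8 distal: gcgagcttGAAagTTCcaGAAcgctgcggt
HSPA8 proximal: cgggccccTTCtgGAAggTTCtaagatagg
HSPA6: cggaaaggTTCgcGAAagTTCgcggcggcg
DNAJB6: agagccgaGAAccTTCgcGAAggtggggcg
DNAJA1: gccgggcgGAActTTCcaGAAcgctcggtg

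A shorter 2-unit form, GAANNTTC or TTCNNGAA, which every 3-unit element also contains, was in 13.5% of all promoters and in 14 of the 57 chaperone promoters (24.6%). It is printed for 5 genes of the HSP70, small heat shock and mitochondrial folding classes, and DNAJC15, HSPB3 and HSPB6 are among the others that hold it. The inducible pair HSPA1A at chr6:31815426-31815455 and HSPA1B at chr6:31827622-31827651 carry it in almost identical surroundings, and HSPA1L, which is read away from HSPA1A, shares the HSPA1A window on the other strand. HSPB1 has it at chr7:76302480-76302509 and HSPB8 at chr12:119178832-119178861, all on the plus strand. HSPA9, the mitochondrial HSP70, has it at chr5:138575387-138575416 on the minus strand.
HSPA1A: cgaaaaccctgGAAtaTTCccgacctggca
HSPA1B: cgaaacccctgGAAtaTTCccgacctggca
HSPB1: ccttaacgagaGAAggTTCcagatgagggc
HSPB8: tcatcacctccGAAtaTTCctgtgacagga
HSPA9: tggttggaggtTTCcaGAAgcgctgccgcc

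Silencing YEATS2 was accompanied by lower mRNA of 5 of the 8 cytosolic HSP70 rows tested, HSPA8, HSPA1A and HSPA1B among them, of HSPB1 and HSPB8 and of HSP90AA1, whereas mitochondrial HSP70 (HSPA9) and several DNAJB and DNAJC genes were higher. Enough reads for a test were present for 57 of the 69 genes. Calls were made by edgeR's quasi-likelihood test across 17058 genes, with p adjusted by Benjamini-Hochberg and a threshold of 0.05. Of the 57, 34 were called (46.2% of all genes tested were): 19 fell (33.3%, against 23.6% of all genes), 15 rose (26.3%, against 22.6%) and 23 were not called. Scaled by library totals alone, 14 fell and 21 rose, beside 2567 falls and 5441 rises over all genes, so the balance between falls and rises depended on the scaling. The median log2 fold change of the 57 was -0.01, as it was over all genes, and the quartiles were -0.48 and 0.22. The shares of falls and rises were thus not far above the background, and whether the classes differed from each other was not tested. Of the 34 called members, 19 moved by less than 0.5 on the log2 scale, as did 4001 of the 7876 called among all genes. None of the called members fell by at least 2-fold (3.7% of all genes were called and did). A single called member rose by at least 2-fold (5.99% of all genes), DNAJC12, a J-domain protein that escorts aromatic amino acid hydroxylases. It went from 0.882 and 0.820 CPM to 3.16 and 2.63 CPM on 31 to 80 counts per library. DNAJA4 (-1.19, edgeR adjusted p = 0.144) and HSPB6 (1.15) also differed by more than 2-fold, but they stood under 1 CPM and were not called.

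**Figure D1:**
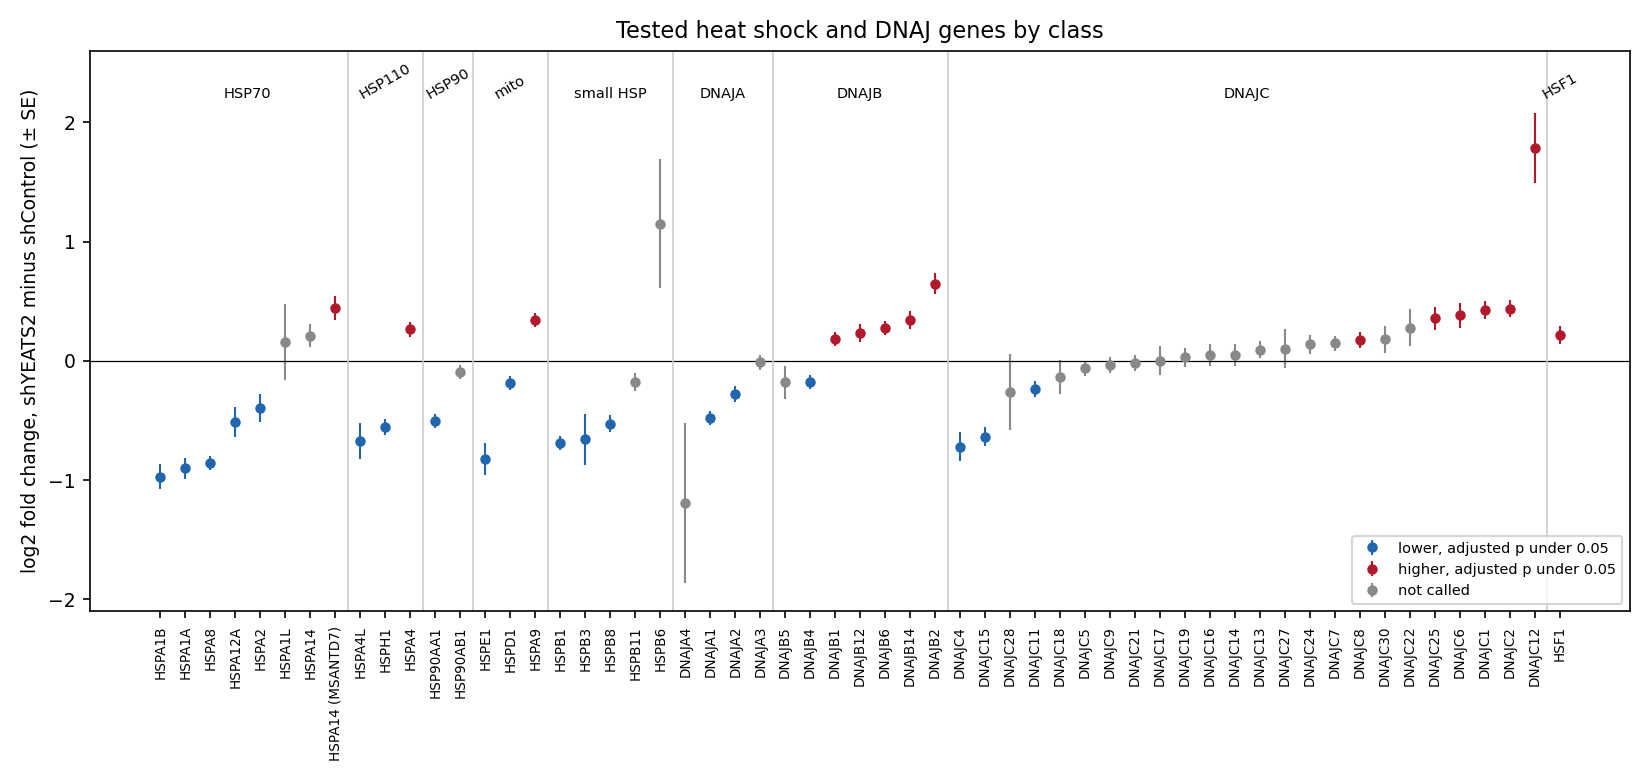
Log2 fold change (shYEATS2 against shControl, with SE bars) of the 57 tested chaperone genes, grouped by class and coloured by edgeR call. Cytosolic HSP70 and small heat shock genes lie mostly below 0, down to -0.97 for HSPA1B among the called genes, and DNAJB genes mostly above it.

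A set of 13 genes, HSF1 included, was listed as stress-inducible with earlier results of these data known, so its direction is no independent evidence. It also holds HSPA8 and HSP90AB1, which are constitutive forms. No gene of the co-chaperone list given below is in it. Of that list 13 genes fell, 4 rose and 16 were not called, with BAG3 (0.006), STIP1 (0.01) and CHORDC1 (0.10) among those not called. Of the 12 tested genes of the set, 9 fell (75%, against 23.6% of all genes) and 2 rose (16.7%, against 22.6%). The 2 that rose were DNAJB1 and HSF1, HSP90AB1 was not called, and the median was -0.53. The groups did not overlap in any of the 12: shYEATS2 was the lower group in 10 (36.3% of all genes tested lay wholly below) and the higher in 2 (35.3% lay wholly above). Outside this set, 10 of 45 tested genes fell (22.2%) and 13 rose (28.9%), with a median of 0.05. Over all genes tested the shares were 23.6% and 22.6%.

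Among the cytosolic HSP70 genes, 5 of 8 tested fell and 1 row rose (23.6% and 22.6% of all genes tested). HSPA8, the constitutive HSP70 that carries most of the family's mRNA, was counted at 917 and 934 CPM in shControl and at 513 and 511 CPM in shYEATS2. The groups lay far apart and the libraries within each group differed little. The log2 fold change was -0.85 ± 0.06 (SE; adjusted p = 1.4e-20, edgeR's quasi-likelihood test), which left 55.3% of the control level. Its gene lies at chr11:123057489-123063230 on GRCh38, and no 100-base stretch of its Ensembl canonical transcript recurs in another annotated gene. Of the exon sequence over all its transcripts, 3.61% overlaps genes on the same strand, SNORD14C first, and 11.4% genes on the opposite strand.

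The heat-inducible HSPA1A stood at 47.6 and 43.0 CPM in shControl and at 25.03 and 23.08 CPM in shYEATS2 (log2 fold change -0.90 ± 0.09, edgeR adjusted p = 3.02e-14). Its neighbour HSPA1B stood at 24.7 and 23.2 CPM against 13.5 and 10.2 CPM (-0.97 ± 0.11, edgeR adjusted p = 1.58e-11). Both genes were lower in both shYEATS2 libraries by about the same proportion. They encode nearly the same protein, and 72.4% of the 100-base stretches of HSPA1A occur in HSPA1B. Reads that fit both may be among those without a unique alignment, 3.2% to 3.5% of each file, which were left out. How many reads each gene lost is uncertain, so both levels may be too low. Of the HSPA1B exon sequence, 36.6% also overlaps another gene on the same strand. With the counts of HSPA1A and HSPA1B added together, which brings no lost reads back, the log2 fold change was -0.93 (edgeR adjusted p = 2.97e-16). HSPA6, a strictly stress-inducible HSP70, had 9, 3, 3 and 0 counts and was not tested, and 27.8% of its sequence recurs in HSPA7, which had no count.

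Lower too were HSPA2, an HSP70 best known from the testis, at 14.5 and 14.9 CPM against 11.21 and 11.03 CPM (-0.40, not called with library totals alone), and HSPA12A, a distant HSP70 relative, at 13.3 and 11.5 CPM against 8.72 and 8.66 CPM (-0.51). Without shControl 1 the HSPA12A call was lost (adjusted p = 0.0516). HSPA1L, expressed near 1 CPM, overlapped between the groups. HSPA14, a ribosome-associated HSP70, stood at 20.5 and 21.1 CPM against 22.9 and 25.7 CPM and was not called (edgeR adjusted p = 0.0634). The second row with that symbol rose by 0.44, but GENCODE 44 names its identifier MSANTD7, so it is no HSP70 in that annotation, and without shControl 1 its adjusted p was also 0.0516.

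**Figure D2:**
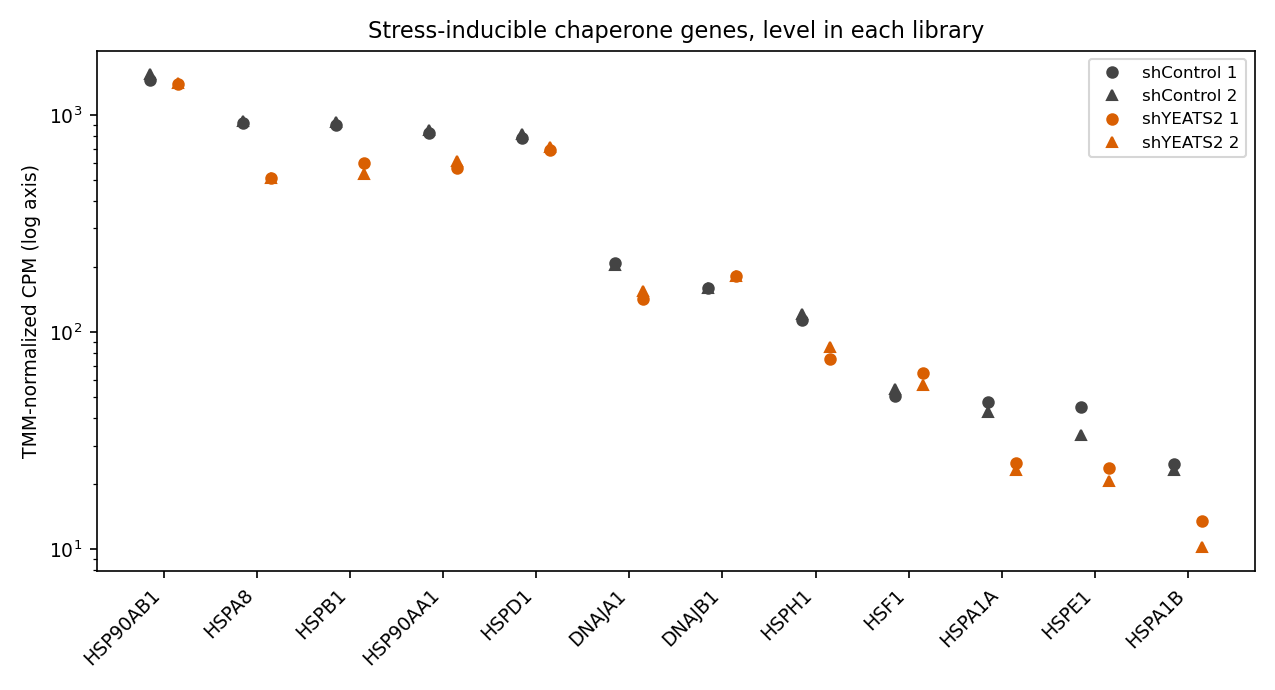
CPM in each library on a log axis for the 12 tested genes of the stress-inducible set (circles for library 1, triangles for library 2). The shYEATS2 points lie below all shControl points for 10 tested genes, HSPA8 and HSPB1 among them, and above them for DNAJB1 and HSF1.

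The HSP110 proteins, which recharge HSP70 with ATP, moved in opposite directions. HSPH1, the heat-inducible one, fell from 113 and 121 CPM to 75.2 and 85.3 CPM (log2 fold change -0.55 ± 0.07, edgeR adjusted p = 2.59e-10). HSPA4L, a close relative of low abundance, fell from 8.86 and 10.5 CPM to 5.29 and 7.30 CPM (-0.67). HSPA4, the constitutive member, rose from 216 and 233 CPM to 268 and 272 CPM (0.26 ± 0.06, edgeR adjusted p = 1.78e-04), a call lost without shControl 1 (adjusted p = 0.0607). The groups did not overlap in any of these 3 genes, of which 2 fell and 1 rose. Over all genes tested, 36.3% lay wholly below and 35.3% wholly above, and 23.6% fell and 22.6% rose. The summed level of the class was 338 and 365 CPM in shControl and 349 and 364 CPM in shYEATS2, which overlap.

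Both cytosolic HSP90 genes were abundant, and they differed in response. HSP90AA1, the inducible form, was counted at 826 and 856 CPM in shControl and at 571 and 615 CPM in shYEATS2 (log2 fold change -0.50 ± 0.06, edgeR adjusted p = 3.57e-11). HSP90AB1, the constitutive form, was counted at 1443 and 1537 CPM against 1387 and 1404 CPM and was not called (-0.09 ± 0.06, edgeR adjusted p = 0.185), and scaling by library totals alone turned its sign (0.04). The first thus fell clearly outside the spread of its replicates and the other did not pass the test.

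In the mitochondrion, HSPA9 (mortalin), the HSP70 that pulls proteins across the inner membrane, rose from 632 and 659 CPM to 806 and 831 CPM (log2 fold change 0.34 ± 0.06, edgeR adjusted p = 9.48e-07). HSPD1, the barrel-shaped chaperonin HSP60, went the other way, from 781 and 814 CPM to 692 and 711 CPM (-0.19 ± 0.06, edgeR adjusted p = 0.00589). That call was lost without shControl 2 (adjusted p = 0.138) and with library totals alone. HSPE1, the lid of that barrel, is read from a shared region beside HSPD1 on chromosome 2 in the opposite direction. It stood at 45.1 and 33.7 CPM against 23.5 and 20.5 CPM (-0.82 ± 0.13, edgeR adjusted p = 2.81e-04), and the call was lost without shYEATS2 1 (adjusted p = 0.215) or shYEATS2 2 (adjusted p = 0.387). Its SD in shControl was 8.04 CPM on a mean of 39.4 CPM, and 31.7% of its sequence recurs in other genes, HSPE1-MOB4 first.

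Of the 5 small heat shock genes tested, 3 fell and none rose (23.6% and 22.6% of all genes tested). HSPB1 (HSP27), which binds unfolded proteins and actin filaments, was counted at 899 and 931 CPM in shControl and at 598 and 537 CPM in shYEATS2 (log2 fold change -0.69 ± 0.06, edgeR adjusted p = 7.12e-16). HSPB8, which works with BAG3 in the removal of aggregates by autophagy, was counted at 64.8 and 65.3 CPM against 44.2 and 46.4 CPM (-0.53 ± 0.07, edgeR adjusted p = 9.5e-09). Both were lower in each shYEATS2 library than in either control. HSPB3 fell from 3.81 and 4.39 CPM to 2.37 and 2.97 CPM (-0.66), a call lost without shYEATS2 1 (adjusted p = 0.181), without shControl 2, with DESeq2 (adjusted p = 0.0997) and after thinning to the smallest total (adjusted p = 0.122). HSPB6 pointed the other way at under 1 CPM, from 0.176 and 0.450 CPM to 0.632 and 0.764 CPM without overlap (1.15, edgeR adjusted p = 0.0757), and was called higher by limma-voom alone among the alternatives (adjusted p = 0.0322). HSPB11, which GENCODE 44 names IFT25 after its part in cilia, overlapped between the groups and was not called.

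J-domain genes as a whole showed 6 falls (17.1%) and 11 rises (31.4%) among 35 tested, with a median of 0.05. Over all genes tested 23.6% fell and 22.6% rose. The DNAJA genes, type I partners of HSP70 with a zinc finger, held 2 of the falls. DNAJA1, whose promoter has a 3-unit element, fell from 207 and 204 CPM to 142 and 154 CPM (log2 fold change -0.48 ± 0.06, edgeR adjusted p = 1.02e-09). DNAJA2 fell from 100.3 and 103 CPM to 80.8 and 87.5 CPM (-0.28), a call lost with library totals alone (adjusted p = 0.0636). The mitochondrial DNAJA3 was level, at 117 and 115 CPM against 115 and 116 CPM, and was not called.

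DNAJB genes went mainly up, with 5 of 7 tested higher and 1 lower (22.6% and 23.6% of all genes tested). DNAJB1 (HSP40), the inducible J-domain partner of HSP70, stood at 159.9 and 159.2 CPM against 180.7 and 181.1 CPM (log2 fold change 0.18 ± 0.06, edgeR adjusted p = 0.0108), so it moved against HSPA1A and HSPA8. Its call was lost without shControl 1 (adjusted p = 0.128) or shControl 2 (adjusted p = 0.146) and without a filter on low counts. DNAJB6, a suppressor of amyloid aggregation whose promoter has a 3-unit element, rose from 156 and 155 CPM to 189 and 186 CPM (0.27 ± 0.06, edgeR adjusted p = 1.31e-04). DNAJB2, which sends misfolded clients to the proteasome, showed the steepest rise among genes of at least 10 CPM, from 24.1 and 22.0 CPM to 35.8 and 36.7 CPM (0.65 ± 0.09, edgeR adjusted p = 2.98e-09). DNAJB4 was the gene that fell, from 229 and 240 CPM to 197 and 218 CPM (-0.18), and that call was lost without shControl 2 (adjusted p = 0.186), without shYEATS2 1, after thinning and with library totals alone (adjusted p = 0.56).

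Among 6 J-domain genes of the endoplasmic reticulum, listed together, 4 rose and none fell (22.6% and 23.6% of all genes tested). DNAJC1, which binds the lumenal HSP70, rose from 39.6 and 37.0 CPM to 50.6 and 52.6 CPM (0.43), and DNAJB14, a membrane protein of endoplasmic reticulum quality control, from 52.0 and 57.2 CPM to 65.5 and 73.7 CPM (0.34). DNAJC25 rose by 0.36 and DNAJB12, the partner of DNAJB14, by 0.23. Of all genes tested, 35.3% had shYEATS2 wholly above shControl. The shYEATS2 libraries were above the shControl libraries in each of these 4 genes, and DNAJB12 lost its call without any library but shYEATS2 2, with a largest adjusted p of 0.293 without shYEATS2 1. Of 7 J-domain genes of the mitochondrion 3 fell and none rose, and the difference between these short lists was not tested. They were DNAJC15, an inner membrane relative of the import motor protein DNAJC19, from 45.6 and 49.3 CPM to 31.6 and 29.0 CPM (-0.64 ± 0.08, edgeR adjusted p = 9.32e-10), DNAJC4, from 14.2 and 14.1 CPM to 9.12 and 7.72 CPM (-0.72), and DNAJC11, a protein tied to the cristae complex (-0.24), whose call was lost without shControl 2 (adjusted p = 0.063) and with library totals alone (adjusted p = 0.175). DNAJC19 itself was level, at 35.3 and 36.3 CPM against 35.9 and 37.2 CPM.

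Over all 24 tested DNAJC genes 3 fell (12.5%, against 23.6% of all genes), 6 rose (25%, against 22.6%) and 15 were not called. The share of rises was thus near the background. DNAJC2, the J-domain protein at the ribosome's exit tunnel, rose from 54.5 and 57.3 CPM to 73.6 and 78.3 CPM (0.44 ± 0.07, edgeR adjusted p = 2.9e-07). DNAJC6 (auxilin), which uncoats clathrin vesicles together with HSPA8, rose from 13.9 and 15.9 CPM to 20.6 and 17.7 CPM (0.38), a call lost without shControl 1 (adjusted p = 0.127) or shYEATS2 1 (adjusted p = 0.142). DNAJC5, the synaptic vesicle cysteine string protein, at 137 and 140 CPM against 135 and 130 CPM, and DNAJC7, at 92.3 CPM in both controls against 98.7 and 106 CPM, were not called.

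HSF1, the factor that binds heat shock elements, was not lower. It stood at 50.8 and 54.4 CPM in shControl and at 64.5 and 56.9 CPM in shYEATS2 (log2 fold change 0.22 ± 0.07, edgeR adjusted p = 0.0115). The call was lost without shControl 1 (adjusted p = 0.271), without shControl 2 (adjusted p = 0.0536), without shYEATS2 1 (adjusted p = 0.313) and with DESeq2 (adjusted p = 0.06). The mRNA level says nothing of the protein's activity.

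The 12 genes with too few reads for a test were DNAJB3, DNAJB7, DNAJB8, DNAJB13, DNAJC5B, DNAJC5G, HSPA6, HSPA7, HSPA12B, HSPB2, HSPB7 and HSPB9. Of these, DNAJB3, DNAJB8, HSPA7 and HSPB2, had no count in any library. HSPB2 shares 85.3% of its exon sequence with the readthrough gene HSPB2-C11orf52, so its 0 cannot be read as no transcript.

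Levels were also set per kilobase of exon, with the exons of all annotated transcripts of a gene joined. That length can exceed the length of the main mRNA, and the ranks depend on it. It was 1.623 kb for HSPB1, 2.98 kb for HSP90AB1 and 9.782 kb for HSPA9. The largest values in shControl were HSPB1 at 564 CPM per kb and HSP90AB1 at 500.0 CPM per kb. HSPA8 followed at 191, HSP90AA1 at 165 and HSPD1 at 105 CPM per kb. In shYEATS2 their order changed, with HSP90AB1 at 469, HSPB1 at 350, HSP90AA1 at 116 and HSPA8 at 106 CPM per kb. HSPA8 and HSP90AA1 therefore changed places, as they also did in CPM. HSPB1 and HSP90AB1 changed places on this scale alone. In CPM, HSP90AB1 was above HSPB1 in both groups, at means of 1490 against 915 in shControl and 1396 against 568 in shYEATS2. HSPA9 went from 66.0 to 83.6 CPM per kb and DNAJA1 from 77.1 to 55.5 CPM per kb, again an exchange on this scale alone. In CPM, HSPA9 was above DNAJA1 in both groups, at means of 645 against 206 in shControl and 818 against 148 in shYEATS2.

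Summed over the 69 genes, chaperone mRNA amounted to 8375 and 8650 CPM in shControl and to 7383 and 7509 CPM in shYEATS2, or 87.5% of the control mean. The cytosolic HSP70 genes together gave 1054 and 1066 CPM against 618 and 613 CPM (58.0%), and the small heat shock genes 64.0% of control. DNAJB genes summed to 109% and DNAJC genes to 103% of control. HSPA8, HSPB1 and HSP90AA1, picked after their values were seen, together lost 1009 CPM (mean of 2681 in shControl, 1672 in shYEATS2), beside 1066 CPM for the whole group, whose rises and other falls nearly balanced. Among the genes of at least 100 CPM on average, 6 of 14 members fell and 4 rose, and of all 2089 genes at that level 42.5% fell and 24.4% rose.

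**Figure D3:**
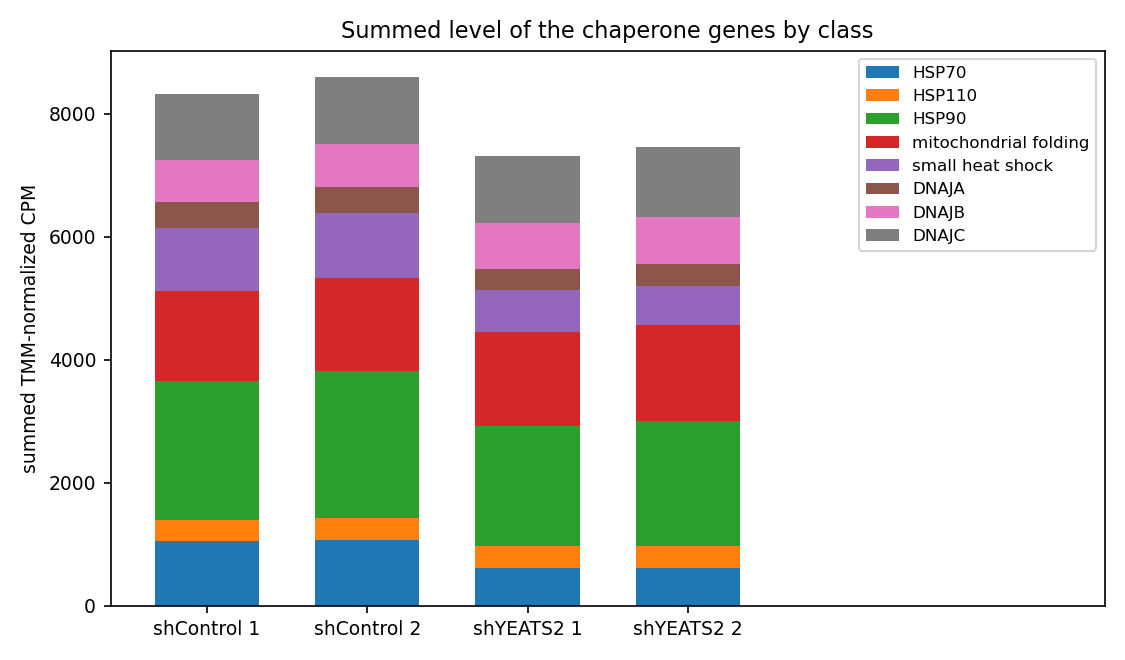
Stacked bars of summed CPM by chaperone class in each library, leaving out HSF1, which is a single gene. The bars of both shYEATS2 libraries are shorter than those of both shControl libraries, mainly in the HSP70, small heat shock and HSP90 sections.

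Ratios of 2 genes within a library do not depend on how libraries are scaled. The pairs were chosen after the values had been seen and are given as descriptions. HSPA8 had 1.45 and 1.42 counts for each HSPA9 count in shControl and 0.637 and 0.615 in shYEATS2, so the cytosolic HSP70 changed from the more counted to the less counted of these genes. The HSPH1 to HSPA4 ratio went from 0.523 and 0.519 to 0.281 and 0.314, DNAJA1 to DNAJB1 from 1.29 and 1.28 to 0.786 and 0.850, and HSP90AA1 to HSP90AB1 from 0.572 and 0.557 to 0.412 and 0.438. None of these ratios overlapped between the groups. HSPA1A to HSPA1B did, at 1.92 and 1.85 against 1.85 and 2.27.

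**Figure D4:**
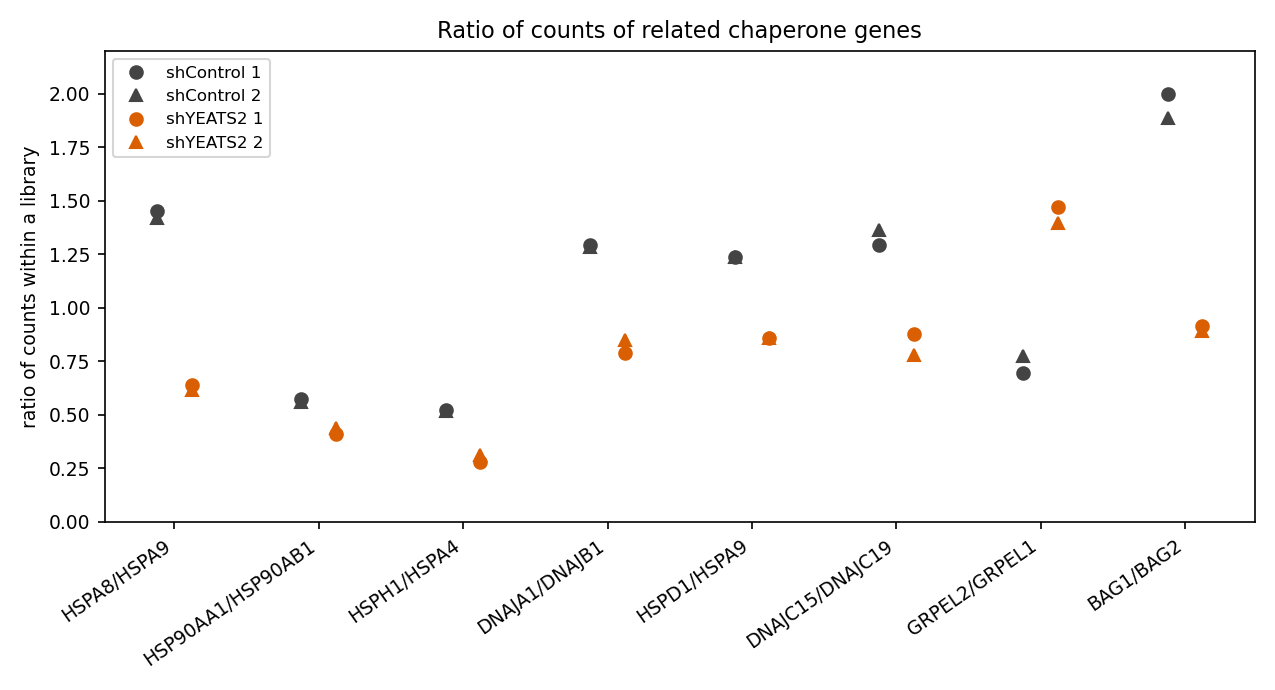
Ratio of the counts of 2 related genes within each library, on a linear axis. For HSPA8 against HSPA9 the points of shControl lie at 1.42 and 1.45 and those of shYEATS2 at 0.615 and 0.637. HSPA1A against HSPA1B is not plotted.

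Fold changes were also set beside the promoter elements. Of the 12 tested genes with a 2-unit element, 8 fell and 2 rose, with a median of -0.58. HSPA1A and HSPA1B, whose windows are almost identical, are counted separately among the 8. Of the 38 tested genes with none in the promoter searched, 11 fell and 10 rose, with a median of -0.02. A gene among these 38 may hold an element at a start that was not searched. Across the tested genes of the whole genome that matched a promoter, 25.6% of the 1130 with the element fell and 27.2% rose, with a median of 0.01. Of the 9872 without it, 27.6% fell and 23.8% rose, with a median of -0.02. Over all genes the shares that fell were thus close to each other, and the split among the chaperones describes a few related genes. HSPA9 and DNAJB6, which both carry an element printed above, were the 2 that rose.

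**Figure D5:**
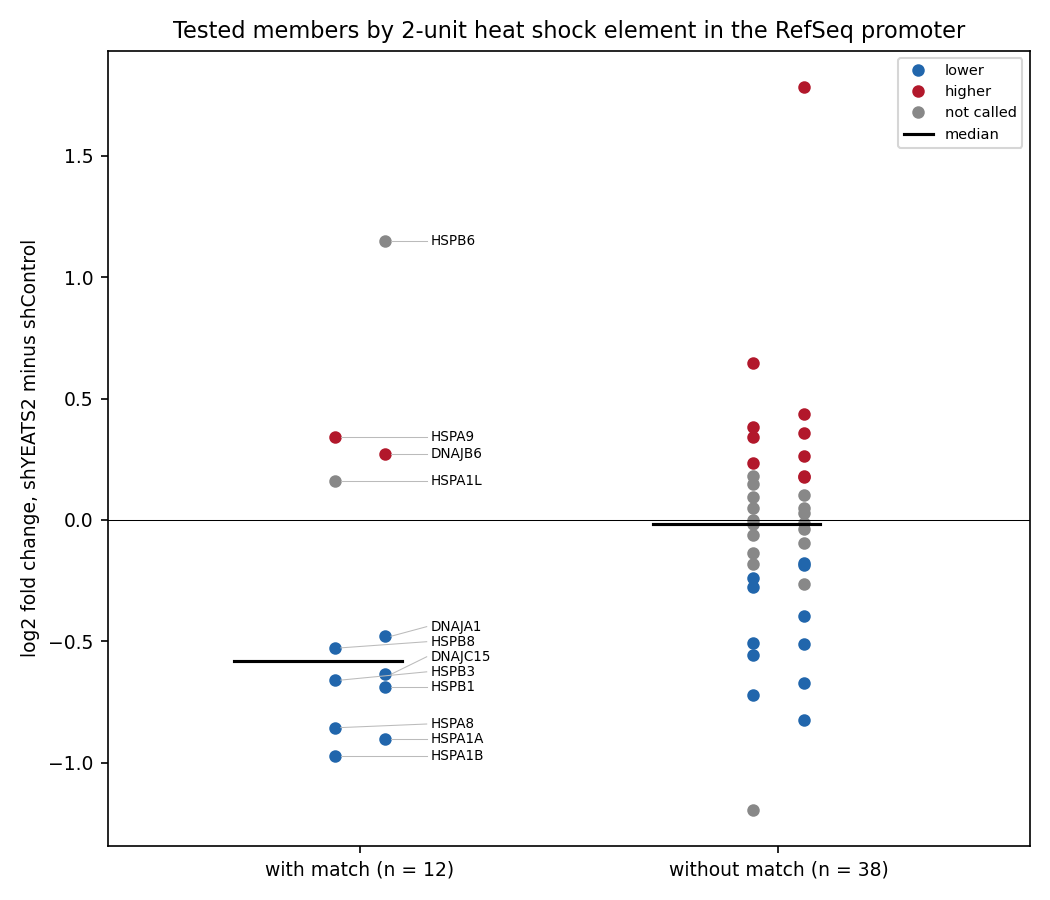
Log2 fold change (shYEATS2 against shControl) of the tested chaperone genes with and without a 2-unit heat shock element in the RefSeq promoter, coloured by edgeR call, with the median as a bar. The genes with an element have a median of -0.58 and include HSPA9 and DNAJB6 above 0, and those without have a median of -0.02.

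Further lists give the partners of these chaperones. Among 33 tested co-chaperones and other heat shock factors, 13 fell and 4 rose (23.6% and 22.6% of all genes tested), with a median of -0.01. BAG1, a nucleotide exchange factor that links HSP70 to the proteasome, fell from 107 and 104 CPM to 66.7 and 66.4 CPM (-0.66), UNC45A, a myosin chaperone that binds HSP90, from 87.8 and 88.9 CPM to 57.1 and 49.0 CPM (-0.72), and HSPBP1, an exchange factor of HSP70, from 53.8 and 52.2 CPM to 40.6 and 36.8 CPM (-0.44). GRPEL2, an exchange factor for mitochondrial HSPA9, rose from 26.6 and 27.8 CPM to 45.2 and 47.7 CPM (0.77), whereas its paralogue GRPEL1 fell by 0.21, and BAG2, an inhibitor of the ubiquitin ligase STUB1, rose by 0.45. SEC63, the J-domain protein of the translocon, rose by 0.26. CRYAB, a small heat shock protein outside the symbol rule, fell by at least 2-fold at a low level, from 6.77 and 6.35 CPM to 3.51 and 2.21 CPM (-1.11). The list's counts turned to 7 falls and 14 rises with library totals alone, and its falls numbered 7 without shControl 1 and 8 without shControl 2.

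The cytosolic chaperonin TRiC, a ring that folds actin and tubulin, and prefoldin, which hands it clients, showed little common direction, with 3 of 14 lower and 4 higher (23.6% and 22.6% of all genes). CCT2, a TRiC subunit, fell from 188 and 208 CPM to 132 and 143 CPM (-0.53 ± 0.06, edgeR adjusted p = 1.17e-10), while CCT3 (-0.27) and CCT7 (-0.16) fell less. PFDN2, a prefoldin subunit, rose from 70.8 and 64.0 CPM to 97.5 and 109.9 CPM (0.61), PFDN6 by 0.25 and CCT8 by 0.18. Without shControl 1 a single gene of this list was called higher, and CCT7, CCT8 and PFDN6 were not called.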

How the data were processed

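The authors made stranded poly(A) RNA libraries, sequenced them as paired reads, aligned the reads to GRCh38 with STAR and counted them per gene with HTSeq. The deposited values are whole-number counts per Ensembl gene without normalization. The annotation release and strand setting are not given in the sources used here. Tally rows for reads without a gene, 15.3% to 16.5% of each file's sum, were left out.

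Genes were filtered with filterByExpr, scaled by TMM and fitted in edgeR 4.0.16 under R 4.3.3 (quasi-likelihood F-test, robust), with Benjamini-Hochberg adjustment and a threshold of 0.05. Each ± is an SE, and n = 2 libraries per group. With 2 against 2, the smallest two-sided exact permutation p is 0.333. The members, gene lists and tests were chosen with earlier results of these data known. Genes were named if they belonged to the stress-inducible set, if they were among the 12 largest falls or rises of called members averaging 10 CPM or more with no overlap between groups, or if they were among the 3 largest falls or rises of the 2 partner lists. Other genes were named after their values were seen. Alternatives were DESeq2 (1.42.0) as scaling or test, library totals alone, no filter, at least 10 counts in every library, limma-voom (limma 3.58.1), a replicate block, thinning to the smallest total and leaving out each library. The fits were tested on simulated data. Positions and exon lengths came from GENCODE 44. Depth limits low genes most: the common coefficient of variation between replicates was 4.95%, and counting error adds to it at low counts.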

Additional observations from a re-analysis of the deposited data

How the results depend on the processing

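No member was called in opposite directions under any alternative, and 19 of the 34 called members, 11 lower and 8 higher, were called under all 12. How many calls among all genes held under all 12 was not counted, so that figure describes the members alone. Scaling by library totals alone moved the median of all genes to 0.13 and no filter moved it to -0.10. The member median was then 0.12 and -0.061, and 0.017 after thinning, which left 31 members called. Library totals alone gave 14 members lower and 21 higher, 2567 genes lower and 5441 higher in all, 7 lower and 14 higher co-chaperones, and 0.039 for HSP90AB1. Without a filter 2 TRiC and prefoldin genes were higher. Leaving out each library gave 8 to 16 members higher, 15 to 19 lower, 7 to 13 co-chaperones lower, 1 to 6 TRiC and prefoldin genes higher and a member median of -0.069 to -0.0061, with the 8 members higher occurring without shControl 1. In those fits the lone library of a group was assumed to vary like the other group. The cause of these shifts was not tested. Whether the replicate numbers pair the libraries is not stated in the labels. The differences between replicates of the 2 groups correlated at -0.0184 over all tested genes. That value cannot decide it, since counting error at low counts weakens such a correlation. With a replicate block 36 members were called, 20 lower and 16 higher, of which 34 were those called without it. Depth limits genes of few counts, such as DNAJC12 and HSPA6.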
